A study of Mus musculus with 12 samples.

Results

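6 mature miRNAs that laboratories often use as references for small RNA of vesicles were followed in exosomes of mouse granulosa cells. They were mmu-miR-103-3p, mmu-miR-107-3p, mmu-miR-191-5p, mmu-miR-425-5p, mmu-miR-423-5p and mmu-miR-423-3p, written below without the prefix mmu for mouse and taken by name from the 637 entries of the count tables, and all 6 had an entry. The question was how steady each of them was over the 12 libraries, under 2 ways of scaling the same reads. They were chosen by name and not by a measured value, but with earlier results of these data known. Exosomes were spun down from the medium of granulosa cells after 48 h of culture, which followed 24 h without exosomes in the medium. Each group had 3 libraries. CON cells were left untreated. Ferric citrate, an iron salt, was given at 100 μM to the cells of FAC and also to those of DFO and VE, so that CON was the only group without added iron. Deferoxamine mesylate, which chelates iron, was added at 100 μM in DFO, and VITE, an antioxidant, at 200 μM in VE.

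The granulosa cells were primary cells of mice given pregnant horse serum gonadotropin. The methods of the study name female Kunming (KM) mice, and their age is not given in the sources used here. Nothing in the labels says that the 3 libraries of a group came from separate cultures or animals, so p-values measure the spread between these libraries, which may be technical. In such preparations fewer vesicles and fewer copies in each vesicle cannot be told apart. The counts on all miRNAs summed to between 452021 and 7565362 per library. The deposited TPM values are relative to a larger total of 22631206 to 24845945 reads per library, of which miRNAs made up 3.28% ± 1.55 (SD, n = 3) in CON, 24.7% ± 4.96 in FAC, 12.6% ± 7.16 in DFO and 11.97% ± 2.69 in VE. CPM in this text means counts scaled to a miRNA total of 1000000 with a composition factor (TMM), which does not carry that share. Any ratio of CPM to TPM therefore moves with the miRNA share of the library.

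A miRNA is a short RNA cut from a hairpin precursor, and it finds its target mRNAs mainly through its seed, bases 2 to 8 from the 5′ end. A reference miRNA is meant to stay level between samples, so that the level of another miRNA can be read against it. Vesicle preparations have no reference miRNA that is accepted for all sources. The mature sequences of the 6 reference miRNAs are shown because reads can be shared between near-identical members. They are written 5′ to 3′ with the seed in capitals, as RefSeq gives them with its GRCm38.p6 mouse annotation.
miR-103-3p: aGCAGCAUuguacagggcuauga
miR-107-3p: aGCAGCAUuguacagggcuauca
miR-191-5p: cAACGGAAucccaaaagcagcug
miR-425-5p: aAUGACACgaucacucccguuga
miR-423-5p: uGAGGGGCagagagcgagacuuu
miR-423-3p: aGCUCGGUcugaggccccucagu
All 6 are 23 bases long. miR-103-3p and miR-107-3p share the seed GCAGCAU and differ at 1 base, G22C, counted from 1 at the 5′ end of miR-103-3p. Counts of this pair are therefore uncertain, since the authors' handling of reads that match both is not given in the sources used here. The other 4 seeds were shared with no other of the 547 entries that matched a RefSeq mature sequence by name.

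By RefSeq on GRCm38.p6, miR-103-3p is made from 2 loci, Mir103-1 at chr11:35782447-35782469 on the plus strand, inside Pank3, and Mir103-2 at chr2:131288103-131288125 on the plus strand, inside Pank2. miR-107-3p comes from Mir107 at chr19:34820700-34820722 on the minus strand, inside Pank1. These 3 host genes encode pantothenate kinases, the first enzymes of coenzyme A synthesis, and each miRNA lies outside the exons of their coding transcripts in GENCODE. miR-191-5p (Mir191, chr9:108568325-108568347) and miR-425-5p (Mir425, chr9:108568789-108568811) lie on the plus strand, with 384 bases between their hairpins. Both fall inside Dalrd3 as RefSeq bounds it, and inside an exon of a long non-coding RNA gene, 4833445I07Rik, as GENCODE draws it. miR-423-5p (chr11:77078122-77078144) and miR-423-3p (chr11:77078086-77078108) are the 5′ and 3′ arms of the hairpin of Mir423 on the minus strand, outside the coding exons of Nsrp1. The deposited files were made on mm9, as the submitters' processing notes name it, so these positions are from another build than the files and served for annotation only.

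miR-191-5p was the steadiest of the 6 in CPM and the fourth in deposited TPM. In CPM it stood at 624, 903 and 454 in CON replicates 1 to 3, at 944, 796 and 1086 in FAC, at 644, 657 and 733 in DFO, and at 744, 532 and 909 in VE. The highest library was 2.39-fold above the lowest. The group means were 942 ± 145 (SD, n = 3) in FAC, 728 ± 189 in VE, 678 ± 47.8 in DFO and 661 ± 227 in CON. Libraries of neighbouring groups in this order overlapped, and FAC and DFO were the only pair of groups without overlap. On the deposited TPM scale the same reads gave 31.4, 15.2 and 11.7 in CON, 324, 247 and 218 in FAC, 76.7, 149 and 39.3 in DFO, and 68.0, 60.1 and 119 in VE. Here every FAC library lay above every other library and every CON library below, with a 27.8-fold range. The DFO libraries (88.4 ± 55.8 TPM) and the VE libraries (82.5 ± 32.1 TPM) overlapped.

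The SD of log2(CPM + 1) of miR-191-5p over the 12 libraries was 0.36, and that of log2(TPM + 1) was 1.51. Differences between groups made up 37.2% of the sum of squares in log2 CPM and 86.1% in log2 TPM. Part of such a sum falls between groups even where the groups do not differ. The exact permutation test described below gave p = 0.266 in log2 CPM and p = 0.000974 in log2 TPM. Across the 12 libraries, log2 TPM of miR-191-5p had a Pearson r of 0.97 with the log2 miRNA share of the library, against 0.40 for log2 CPM. These points share their library totals, so the values are a description. In TPM the r was 0.89 for miR-423-3p, 0.84 for miR-103-3p, 0.60 for miR-425-5p, 0.55 for miR-423-5p and 0.54 for miR-107-3p. In CPM the r was 0.70 for miR-103-3p, 0.23 for miR-425-5p, 0.17 for miR-107-3p, -0.45 for miR-423-3p and -0.55 for miR-423-5p. Over all tested entries, rare entries near 0 included, the median r was 0.51 in TPM and 0.22 in CPM.

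**Figure D1:**
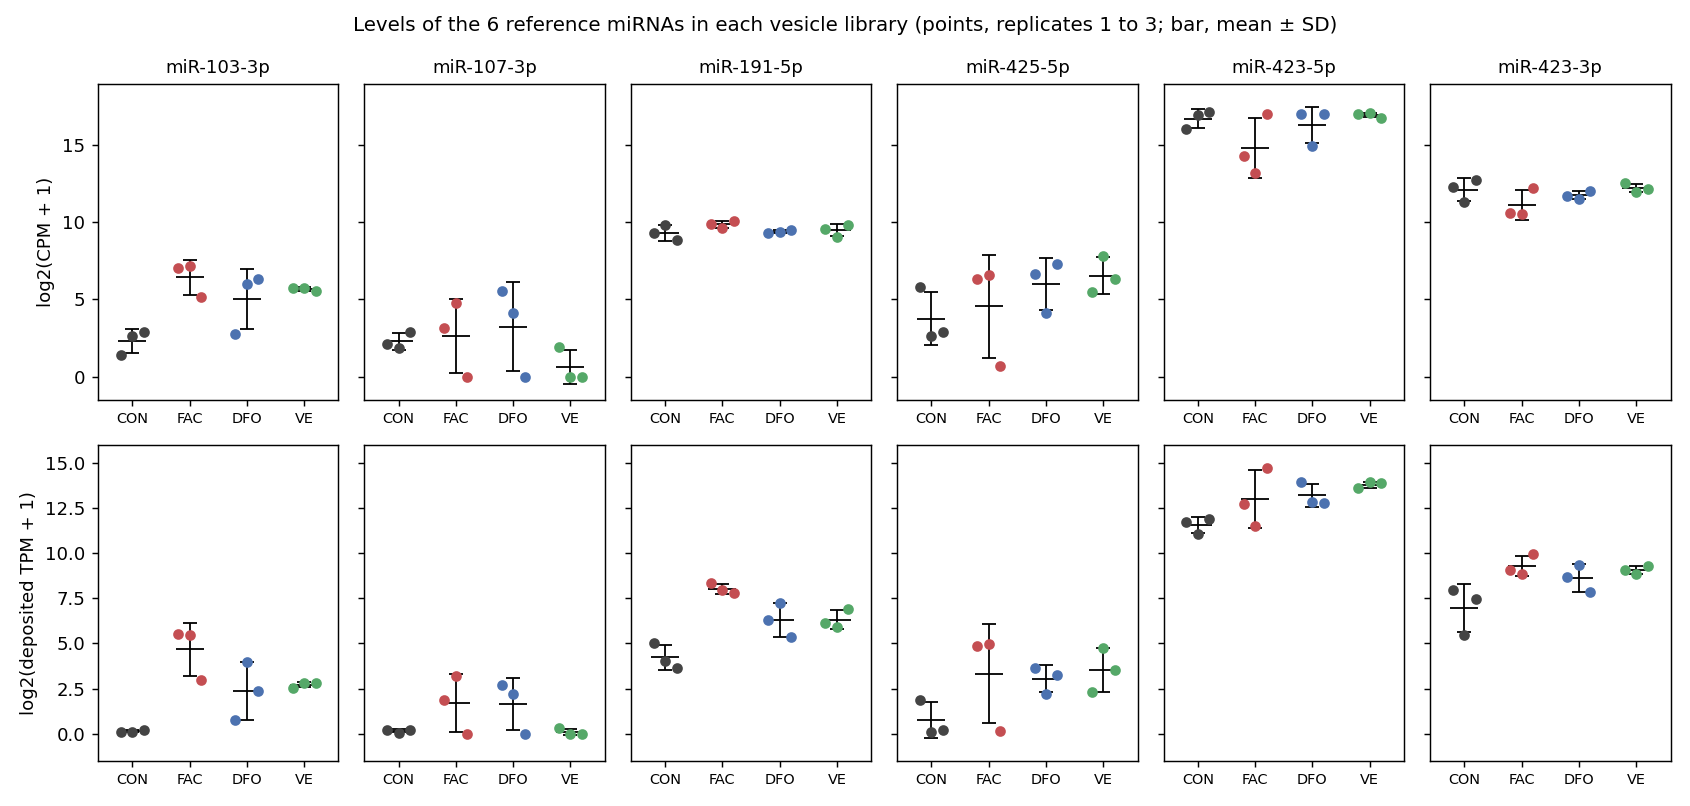
Levels of the 6 reference miRNAs in every library, as log2(CPM + 1) in the upper row and log2(deposited TPM + 1) in the lower row, by group (points, replicates 1 to 3 from left to right; bars, mean ± SD, n = 3). miR-191-5p is nearly level in CPM (SD over the 12 libraries 0.36) and stepped in TPM (SD 1.51), and FAC replicate 3 stands apart from the other FAC libraries for miR-425-5p and miR-423-5p.

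The arms of the Mir423 hairpin were the most abundant members. miR-423-5p stood at 66998, 127211 and 149382 CPM in CON, at 19856, 9418 and 131943 in FAC, at 132078, 32324 and 133123 in DFO, and at 136081, 137386 and 113482 in VE. FAC replicates 1 and 2 and DFO replicate 2 were the low libraries, while FAC replicate 3 lay among the VE libraries. The FAC group therefore overlapped with every other group, with an SD (67927) above its mean (53739). The same 3 libraries had the lowest summed level of red blood cell markers. The sum was 7286 and 13408 CPM in FAC replicates 1 and 2 and 15426 in DFO replicate 2. It was 29612 to 169596 CPM in the other 9 libraries. Nearly all of this sum was the joined entry of miR-486a-5p and miR-486b-5p, so it mainly gives the level of that entry. Group means of miR-451a, another of these markers, were 503 CPM in CON, 454 in FAC, 244 in DFO and 1746 in VE. Such group means do not describe the split between libraries within FAC and DFO. The part of red blood cell RNA in the level of miR-423-5p was not tested. In deposited TPM, miR-423-5p stood at 3375, 2135 and 3844 in CON, at 6824, 2925 and 26498 in FAC, at 15727, 7340 and 7144 in DFO, and at 12444, 15534 and 14897 in VE. All DFO and VE libraries lay above all CON libraries on this scale. FAC replicate 3 was the highest of the 12 libraries, and FAC replicate 2 lay within the CON range.

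miR-423-3p, the less abundant arm, stood at 4982, 2585 and 6941 CPM in CON, at 1565, 1481 and 4875 in FAC, at 3375, 2914 and 4205 in DFO, and at 5926, 4051 and 4693 in VE. Every pair of groups overlapped. Its 4.69-fold range was smaller than the 15.9-fold range of miR-423-5p, and the SDs of log2(CPM + 1) were 0.70 and 1.33. In deposited TPM it stood at 251, 43.4 and 179 in CON, 538, 460 and 979 in FAC, 402, 662 and 226 in DFO, and 542, 458 and 616 in VE. The FAC and VE libraries lay above all CON libraries on that scale.

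miR-103-3p rested on very few reads in CON, with 2, 2 and 4 counts. Its normalized levels were 1.64, 5.27 and 6.29 CPM in CON, 133, 142 and 34.3 in FAC, 5.86, 64.0 and 78.8 in DFO, and 52.8, 52.9 and 44.9 in VE. All FAC and VE libraries lay above all CON libraries, and DFO replicate 1 lay within the CON range. Means ran from 103 ± 59.5 CPM in FAC through 50.2 ± 4.57 in VE and 49.6 ± 38.6 in DFO to 4.40 ± 2.44 in CON, with overlap between every pair of FAC, VE and DFO. With counts summed over a group, miR-103-3p was 38.3-fold higher per miRNA count in FAC than in CON (2361 against 8 counts, exact 95% interval 19.4 to 88.9, for counting error only). Deposited TPM put miR-103-3p at 0.0825, 0.0884 and 0.162 in CON, 45.6, 44.0 and 6.89 in FAC, 0.697, 14.5 and 4.23 in DFO, and 4.83, 5.98 and 5.90 in VE. Every library of the 3 iron-treated groups lay above every CON library in TPM.

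miR-107-3p, the near-copy of miR-103-3p, was the rarest member and did not follow it. It had 4, 1 and 4 counts in CON, 67, 194 and 0 in FAC, 134, 90 and 0 in DFO, and 6, 0 and 0 in VE. A count of 0 allows up to 3 counts, which scaled to the miRNA total without a factor is 0.554 CPM in FAC replicate 3, 2.18 in DFO replicate 3, and 1.02 and 0.850 in VE replicates 2 and 3. Normalized levels were 3.28, 2.63 and 6.29 CPM in CON, 7.85, 25.9 and 0 in FAC, 46.2, 16.1 and 0 in DFO, and 2.71, 0 and 0 in VE. The highest library, DFO replicate 1, was among the lowest for miR-103-3p. In deposited TPM the levels of miR-107-3p ran from 0 to 8.05, the highest in FAC replicate 2.

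miR-425-5p, the neighbour of miR-191-5p, stood at 54.1, 5.27 and 6.29 CPM in CON, 80.5, 96.8 and 0.609 in FAC, 97.8, 16.1 and 158 in DFO, and 42.9, 229 and 78.9 in VE. FAC replicate 3 held 3 counts of it, against 687 and 725 in FAC replicates 1 and 2. CON replicates 2 and 3 held 2 and 4 counts. Group means were 117 ± 98.9 CPM in VE, 90.8 ± 71.4 in DFO, 59.3 ± 51.5 in FAC and 21.9 ± 27.9 in CON, and libraries of neighbouring groups overlapped. In deposited TPM, miR-425-5p stood at 2.72, 0.0884 and 0.162 in CON, 27.7, 30.1 and 0.122 in FAC, 11.7, 3.66 and 8.50 in DFO, and 3.92, 25.9 and 10.4 in VE. All DFO and VE libraries lay above all CON libraries in TPM, and FAC replicate 3 lay within the CON range.

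The spread of each member was set beside that of all entries that passed the filter on low values, 547 in CPM and 428 in TPM. All 6 reference miRNAs passed both filters. The SD of log2(CPM + 1) over the 12 libraries was 0.36 for miR-191-5p, 0.70 for miR-423-3p, 1.33 for miR-423-5p, 1.93 for miR-103-3p, 1.96 for miR-107-3p and 2.18 for miR-425-5p, and the median of all tested entries was 1.54. Rare entries near 0 in every library also have a small SD on this scale. A narrower set was therefore used as well, the 102 entries with at least 10 counts in every library, whose median was 0.99. Among these miR-191-5p had place 2, after miR-125a-3p (0.33) and before miR-10a-5p (0.41), miR-99b-5p (0.41) and miR-125b-5p (0.54). miR-423-3p had place 21 and miR-423-5p place 75, while miR-103-3p, miR-107-3p and miR-425-5p fell under 10 counts in some library.

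In deposited TPM the order of the members was different. The SD of log2(TPM + 1) was 1.15 for miR-423-5p, 1.18 for miR-423-3p, 1.22 for miR-107-3p, 1.51 for miR-191-5p, 1.81 for miR-425-5p and 1.91 for miR-103-3p, against a median of 1.20 over all tested entries and 1.55 over the 102 entries. The small value of miR-107-3p came with levels near 0 and fell to 0.30 with a pseudocount of 10. Among the 102 entries miR-423-5p had place 16, miR-423-3p place 19 and miR-191-5p place 48. The smallest SDs in TPM belonged to miR-149-5p (0.92), miR-615-3p (0.93), miR-328-3p (0.94), miR-151-3p (1.02) and miR-296-3p (1.02). The log2 miRNA share itself had an SD of 1.24 over the 12 libraries, with a 15.2-fold range.

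**Figure D2:**
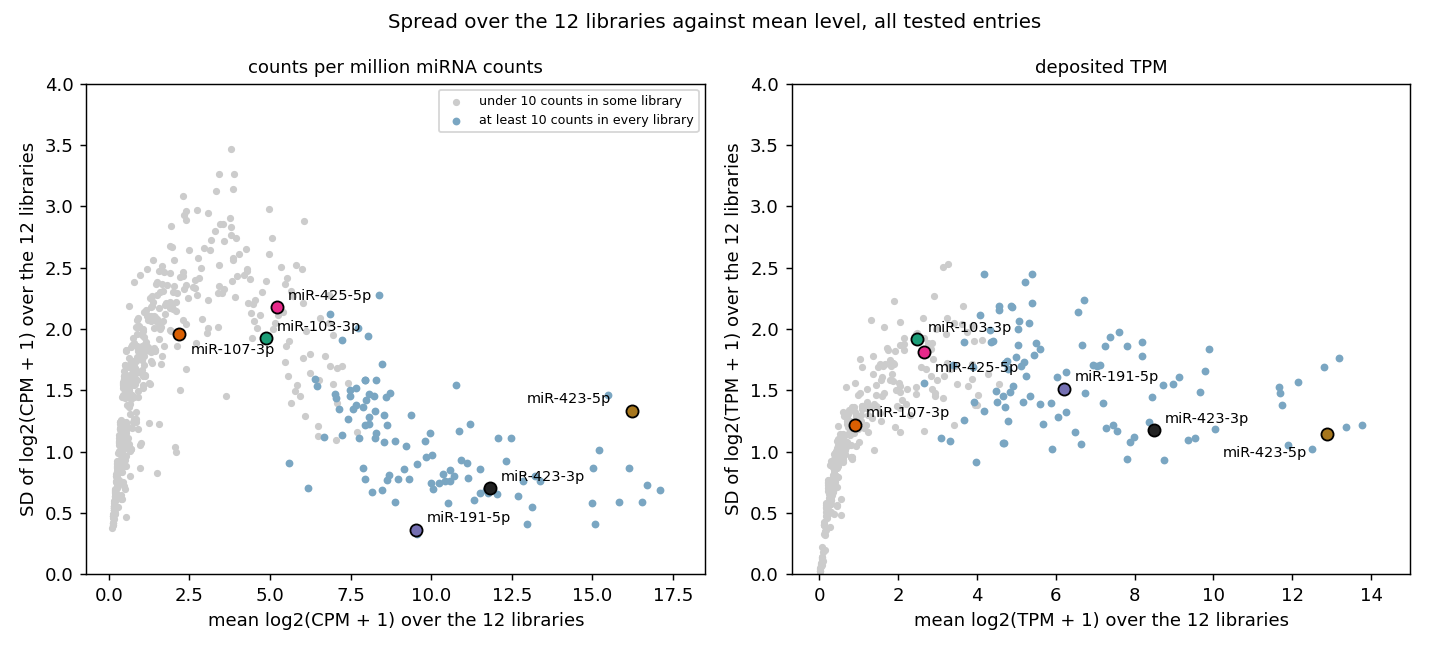
SD over the 12 libraries against mean level for all tested entries, on the log2(CPM + 1) scale at left (547 entries) and the log2(deposited TPM + 1) scale at right (428 entries). Each point is an entry, blue where every library held at least 10 counts, and larger marked points are the 6 reference miRNAs. miR-191-5p lies at the lower edge in CPM (0.36) and in the middle of the blue points in TPM (1.51).

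Of the 6 reference miRNAs, 0 passed an adjusted p of 0.05 for any difference among the 4 groups in CPM (edgeR quasi-likelihood test, Benjamini-Hochberg over all entries), where 4.57% of tested entries were called. At an unadjusted p under 0.05 the test had 101 entries, 1 of them a member, and DESeq2 called 1 member, miR-103-3p (adjusted p = 0.0167). In deposited TPM, limma called 2 of the 6, miR-191-5p (adjusted p = 0.0113) and miR-103-3p (adjusted p = 0.0353), where 20.6% of tested entries were called. The call of miR-103-3p was lost without any of 7 libraries in turn, CON replicates 1, 2 or 3, FAC replicates 1 or 2, or VE replicates 2 or 3, with adjusted p between 0.0504 and 0.124. The call of miR-191-5p held without each library in turn, with adjusted p between 0.00606 and 0.0443. miR-423-3p (adjusted p = 0.0664), miR-423-5p (0.136), miR-425-5p (0.281) and miR-107-3p (0.286) did not pass in limma.

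The edgeR fit gave every entry the spread of the trend over all entries (its prior degrees of freedom were infinite), so its errors are not those of the member alone. An exact permutation test over all 15400 ways to part the 12 libraries into 4 groups of 3 was added after the values were seen, for each member alone and with no adjustment. In log2 CPM it gave an exact p of 0.0268 for miR-103-3p, 0.183 for miR-423-5p, 0.209 for miR-423-3p, 0.266 for miR-191-5p, 0.426 for miR-425-5p and 0.456 for miR-107-3p. In log2 TPM the exact p was 0.000974 for miR-191-5p, 0.00558 for miR-103-3p, 0.0249 for miR-423-3p, 0.0861 for miR-423-5p, 0.180 for miR-107-3p and 0.219 for miR-425-5p. The smallest p these arrangements can give is 6.49e-05.

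FAC was then compared with each other group, by adjusted p under 0.05 and by the rule of a fold of at least 1.5 with an unadjusted p under 0.05. Each member with an unadjusted p under 0.05 in these comparisons also passed the fold. Against CON in CPM, 0 of the 6 passed the adjusted p (background 0.183%), and 2 passed the fold rule (background 9.51%). miR-103-3p was higher in FAC by a log2 fold change of 4.57 ± 1.96 (SE, n = 3 per group; edgeR adjusted p = 0.360), and DESeq2 put the same difference at 4.45 with an adjusted p of 0.00186. miR-423-5p was lower by the fold rule, with a log2 fold change of -1.09 ± 0.36 (SE; edgeR adjusted p = 0.101). Without FAC replicate 3, its edgeR value was -2.95 with an adjusted p of 2.98e-15. The edgeR test shares its spread between entries, so this p is not that of the member alone. The pooled SD of miR-423-5p within groups was 1.19 in log2 CPM over all 12 libraries, FAC replicate 3 included. For miR-191-5p the log2 fold change was 0.51, with a 95% interval of -1.05 to 2.07 (edgeR adjusted p = 0.741), an interval that holds changes in both directions.

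Against CON in deposited TPM, limma called 3 of the 6 by adjusted p, all higher in FAC, beside a background of 30.6%, and all 131 entries called were higher in FAC. The fold rule gave the same 3 members, beside a background of 44.2%. These were miR-103-3p, at a log2 fold change of 4.52 ± 0.99 (SE, n = 3 per group; limma adjusted p = 0.00582), miR-191-5p, at 3.79 ± 0.59 (limma adjusted p = 0.00194), and miR-423-3p, at 2.31 ± 0.65 (limma adjusted p = 0.0185). For each of these, all FAC libraries lay above all CON libraries on the TPM scale. The share of all tested entries without overlap was not counted, so this does not set the members apart. Among the other reference miRNAs listed below, only miR-93-5p overlapped between FAC and CON in TPM. The call of miR-423-3p was lost without CON replicate 2, where it stood at 1.55 with a limma adjusted p of 0.0709. The direction of miR-423-3p turned with the scale, since its log2 fold change in CPM was -0.87 ± 0.58 (edgeR adjusted p = 0.607). Likewise miR-423-5p stood at 1.42 ± 0.71 in TPM (limma adjusted p = 0.142), against -1.09 in CPM. The median log2 fold change of the 6 members was 0.96 in CPM and 2.44 in TPM, beside 1.38 and 1.49 over all tested entries, and that CPM median over all entries was 1.24 with median-of-ratios factors and 1.70 with no composition factor. The medians over all entries are of unlike measures, edgeR fold changes over 547 entries and differences of log2(TPM + 1) over 428. The 1 added to TPM shrinks the changes of rare entries. These 2 medians therefore do not measure how far the scale moves an entry.

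Against DFO, 0 of the 6 members passed the adjusted p in CPM with edgeR (background 0.914%) or with DESeq2, and 1 passed the fold rule (background 12.2%), miR-423-5p, at a log2 fold change of -0.88 ± 0.36 (edgeR adjusted p = 0.196). In deposited TPM, 0 passed the adjusted p (background 4.91%) and 2 passed the fold rule (background 28.3%). These were miR-103-3p, at 2.30 ± 0.99 (limma adjusted p = 0.156), and miR-191-5p, at 1.75 ± 0.59 (limma adjusted p = 0.0907), both higher in FAC. miR-191-5p did not overlap between FAC and DFO on either scale, and the share of all tested entries without overlap was not counted. Without FAC replicate 3, miR-423-5p stood at -2.81 in CPM (edgeR adjusted p = 5.72e-14), and miR-103-3p at 3.15 in TPM (limma adjusted p = 0.0365). Without DFO replicate 2, miR-191-5p stood at 2.22 in TPM (limma adjusted p = 0.0410).

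Against VE, 0 of the 6 passed the adjusted p in CPM with edgeR (background 0.366%) or with DESeq2, and 1 passed the fold rule (background 9.32%), again miR-423-5p, at -1.26 ± 0.36 (edgeR adjusted p = 0.0607). Without FAC replicate 3 it stood at -2.97 (edgeR adjusted p = 9.62e-16). In deposited TPM, 0 members passed the adjusted p in limma (background 0%), with 102 entries at an unadjusted p under 0.05. The fold rule gave 1 member in TPM (background 23.8%), miR-191-5p, higher in FAC by 1.71 ± 0.59 (limma adjusted p = 0.154). The 3 comparisons share the FAC libraries, so they are not independent of each other. miR-107-3p and miR-425-5p passed neither rule in any of these comparisons, and their 95% intervals in CPM spanned 0 in all 3. Against CON those intervals ran from -4.46 to 7.37 for miR-107-3p and from -1.52 to 4.35 for miR-425-5p, so that large changes of these rare members would not have been detectable at this depth and spread.

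**Figure D3:**
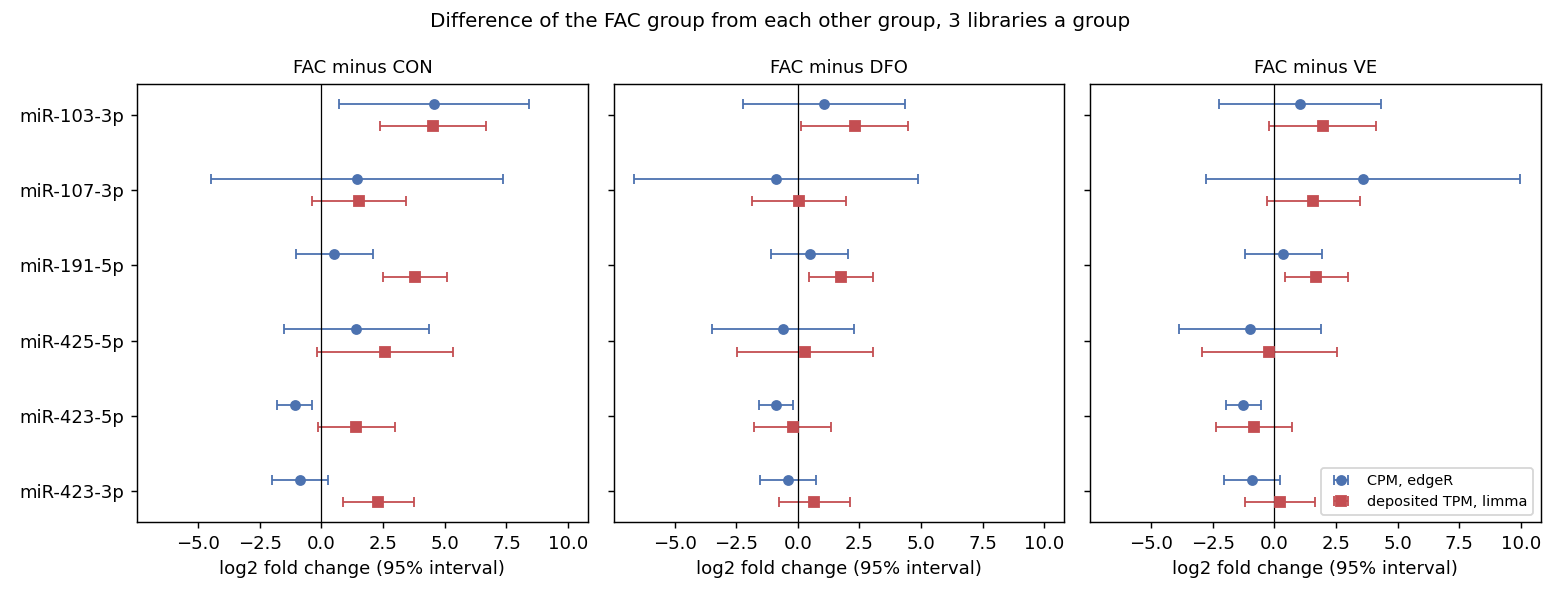
log2 fold change of FAC against CON, DFO and VE for each of the 6 reference miRNAs, from CPM (blue circles, edgeR) and from deposited TPM (red squares, limma), with 95% intervals and 3 libraries a group. Against CON, miR-191-5p lies near 0 in CPM (0.51) and far above it in TPM (3.79), and the arms of Mir423 lie on opposite sides of 0 on the 2 scales.

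A ratio of 2 members within a library does not depend on the total that the reads are divided by, so ratios are the same under CPM and TPM. All 15 pairs were compared over the 4 groups with the exact permutation test on log2 of the count ratio, with 1 count added to each. After Benjamini-Hochberg adjustment over the 15 pairs, 0 had an adjusted p under 0.05. The smallest exact p was 0.0336, for miR-103-3p over miR-423-3p (adjusted p = 0.269). These tests leave wide room for differences, since the SD of the log2 ratio over the 12 libraries ran from 0.86 to 3.51.

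The arms of Mir423 gave the steadiest ratio, with an SD of 0.86 (exact p = 0.494 over 12 libraries). miR-423-5p was read 13.4, 49.2 and 21.5 times as often as miR-423-3p in CON, 12.7, 6.36 and 27.1 times in FAC, 39.1, 11.1 and 31.7 times in DFO, and 23.0, 33.9 and 24.2 times in VE. The 5′ arm was thus in excess in all 12 libraries, and its excess differed between libraries of the same group. Their log2 CPM values had a Pearson r of 0.82 over the 12 libraries, the highest among the 15 pairs of members. The next steadiest ratio was that of miR-191-5p to miR-423-3p, with an SD of 0.91 (exact p = 0.104). Its count ratio was 0.125, 0.349 and 0.0655 in CON, 0.603, 0.538 and 0.223 in FAC, 0.191, 0.225 and 0.174 in DFO, and 0.126, 0.131 and 0.194 in VE. FAC replicates 1 and 2 were the highest libraries, and FAC replicate 3 lay below CON replicate 2.

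Neighbours at a locus or copies with a shared seed did not keep a steady ratio. miR-191-5p was read 11.5, 172 and 72.3 times as often as miR-425-5p in CON, 11.7, 8.22 and 1783 times in FAC, 6.58, 40.7 and 4.63 times in DFO, and 17.3, 2.32 and 11.5 times in VE. The SD of this log2 ratio was 2.46 (exact p = 0.501), and 1.65 without FAC replicate 3. The SD for miR-103-3p over miR-107-3p was 3.51 (exact p = 0.129), the largest of the 15 pairs. Their log2 ratio, with 1 count added, lay between -0.74 and 0.58 in CON, 2.44 and 7.41 in FAC, -2.91 and 6.73 in DFO, and 4.08 and 7.19 in VE. The ranges within FAC and within DFO were wider than the distance between their means, 4.64 and 1.93. miR-107-3p had 0 counts in 4 libraries, and both copies had at most 4 counts in each CON library. In those libraries the ratio depends strongly on the 1 count added. Reads that match both copies may also have been shared.

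**Figure D4:**
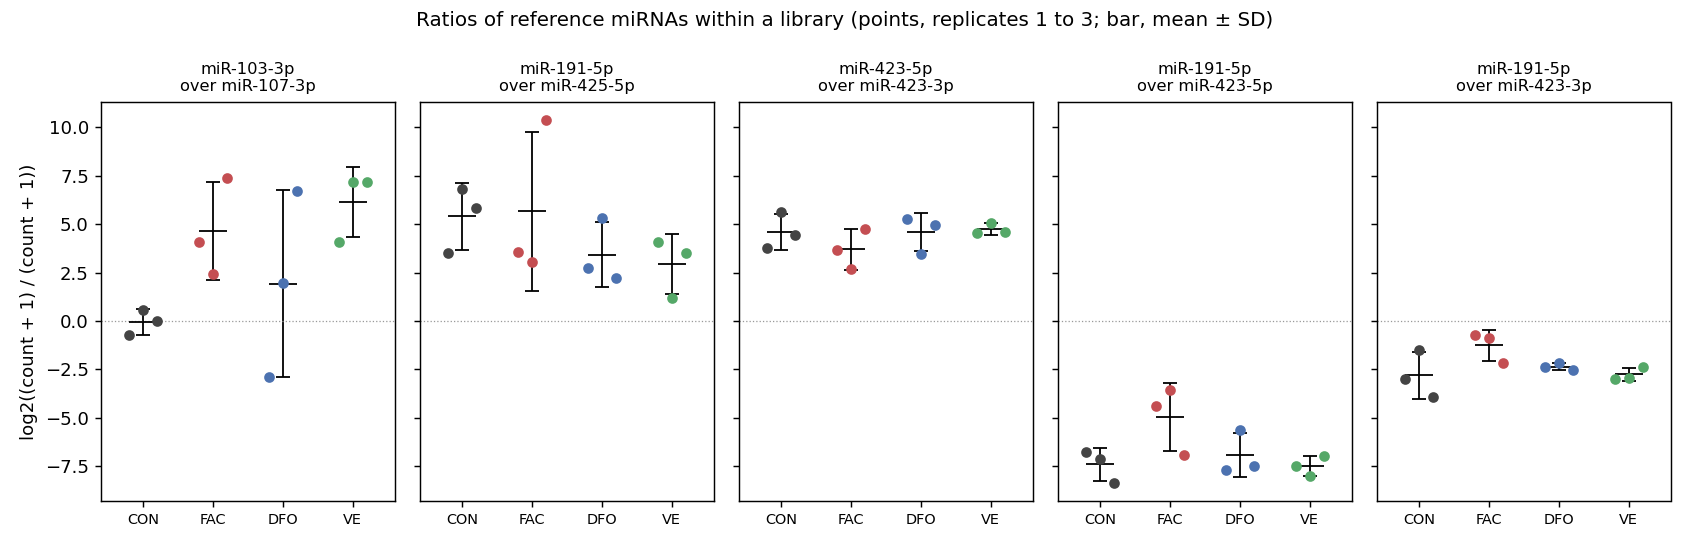
log2 ratios of the counts of 2 reference miRNAs in the same library, with 1 count added to each, by group (points, replicates 1 to 3 from left to right; bars, mean ± SD, n = 3). The ratio of the Mir423 arms (SD over the 12 libraries 0.86) and that of miR-191-5p to miR-423-3p (0.91) vary least, and those of the seed copies (3.51) and of the neighbours at Mir191 and Mir425 (2.46) vary more.

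Taking the mean of the log2 values of miR-191-5p, miR-423-5p and miR-423-3p, the 3 members with at least 10 counts in every library, gave an SD of 0.63 in CPM and 1.12 in TPM. This combination was chosen after its members' counts were seen. Its mean log2 CPM was 12.72 in CON, 11.94 in FAC, 12.50 in DFO and 12.90 in VE, and its mean log2 TPM was 7.59, 10.10, 9.36 and 9.73. In CPM the combination was thus less steady than miR-191-5p alone. In TPM its SD was below those of its members, 1.15 for miR-423-5p, 1.18 for miR-423-3p and 1.51 for miR-191-5p.

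A list of 16 other miRNAs that are often used as references in serum, plasma or vesicles was set beside the 6. All 16 had an entry that was tested. The list was drawn up with earlier results of these data known, so it is not an independent comparison. Their median SD was 0.90 in log2 CPM and 1.62 in log2 TPM, against 1.63 and 1.37 for the 6 members. An SD under 1 was found for 9 of the 16 and 2 of the 6 in CPM, beside 27.4% of all tested entries. In TPM it was found for 0 of the 16 and 0 of the 6, beside 34.6%. These shares include rare entries near 0, which also have a small SD. Over the 102 entries with at least 10 counts in every library, the median SD was 0.99 in CPM and 1.55 in TPM. Of the 16, the smallest SDs in CPM were those of miR-21a-5p (0.58), miR-26a-5p (0.59) and miR-151-3p (0.59). The largest were those of miR-484 (1.94), miR-30e-5p (2.01) and miR-93-5p (2.74). Between FAC and CON, 14 of the 16 were called higher by adjusted p in TPM (limma), where 30.6% of all tested entries were called, and 0 in CPM (edgeR), where 0.183% were called.

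Of the other arms of the members' hairpins, miR-191-3p and miR-425-3p had entries. miR-191-3p held 12 counts in all of CON, 1022 in FAC, 320 in DFO and 54 in VE, and its SD of log2(CPM + 1) was 2.29, beside 0.36 for miR-191-5p. miR-425-3p was at 0 in 8 of the 12 libraries. It had 55 counts in CON, all of them in replicate 2, and 39 in FAC. Over the 126 other entries with a mean of at least 100 CPM, the patterns most like each member in log2 CPM were those of miR-146a-5p for miR-103-3p (Pearson r = 0.85), miR-34c-5p for miR-107-3p (0.66), miR-100-5p for miR-191-5p (0.78), let-7d-5p for miR-425-5p (0.69), miR-486a-3p for miR-423-5p (0.96) and miR-615-3p for miR-423-3p (0.84). The next were miR-140-3p (0.70) and miR-23a-3p (0.68) for miR-103-3p, miR-125b-5p (0.45) and let-7d-5p (0.41) for miR-107-3p, miR-192-5p (0.70) and miR-30e-3p (0.70) for miR-191-5p, miR-34b-3p (0.61) and miR-30d-5p (0.58) for miR-425-5p, miR-320-3p (0.95) and miR-485-5p (0.87) for miR-423-5p, and miR-486a-3p (0.83) and miR-3102-5p.2-5p (0.81) for miR-423-3p. Each r is over the same 12 libraries and is a description.

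Markers of other cells that could have left RNA in the preparations were counted beside the members. Of 4 red blood cell markers 3 had an entry, and their summed level ran from 29612 to 65682 CPM in CON, 7286 to 107051 in FAC, 15426 to 85822 in DFO and 89347 to 169596 in VE. The joined entry of miR-486a-5p and miR-486b-5p (18800 to 523926 counts) and miR-451a (25 to 12085 counts) were read in every library, while miR-144-3p was at 0 in 11 of 12. The joined entry made up nearly all of the sum. Its group means were 44909 CPM in CON, 42128 in FAC, 45742 in DFO and 133738 in VE. Those of miR-451a were 503, 454, 244 and 1746 CPM in the same order. All 4 white blood cell markers had an entry, with sums of 18.4 to 315 CPM in CON, 5.86 to 98.5 in FAC, 17.2 to 367 in DFO and 1.81 to 228 in VE, and miR-223-3p and miR-142a-3p were each at 0 in 11 libraries. Of 5 granulosa cell markers 4 had an entry, with sums of 357 to 462 CPM in CON, 281 to 721 in FAC, 15.5 to 353 in DFO and 158 to 429 in VE, and miR-212-3p was at 0 in 10 libraries. The part of RNA of these cells in the levels of the members was not tested.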

How the data were processed

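Reads of small RNA were compared over 12 libraries, 3 in each of 4 groups, with the groups taken from the labels. For each library the authors deposited counts of reads on each of 637 entries, of which 5 stand for a joined pair of miRNAs. A second set of values that the authors deposited under the name TPM is in RPM, each count having been divided by the same library total for every entry, between 22631206 and 24845945 reads, with no length term. Which reads make up that total, and the aligner, its settings and the miRNA database, are not given in the sources used here, and mm9 is named in the submitters' processing notes.

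Counts were tested with edgeR 4.0.16 (quasi-likelihood, TMM factors, 4 groups in 1 fit, at least 10 counts summed over the libraries) in R 4.3.3, and the deposited TPM with limma 3.58.1 (trend, log2(TPM + 1), above 0 in at least 3 libraries). Alternatives were DESeq2 1.42.0, other factors, filters and pseudocounts, the replicate number as a block, and each library left out in turn. The exact test of each member alone was added after seeing the data. TPM fold changes are on the log2(TPM + 1) scale and understate changes of rare entries. Steadiness was the SD of log2(value + 1) over the 12 libraries. Exact permutation tests, on the sum of squares between groups, which has no direction, ran in Python 3.11.15 with NumPy 2.4.6. The scripts were tested on simulated data. Intervals and floors cover counting error only. The members and lists were chosen with earlier results of these data known. Named were the 6 members, their other arms, the 3 steadiest and 3 least steady of the other references, the 3 entries most like each member and the 5 steadiest entries. No 2 libraries were alike within sampling noise (chi-square of at least 156 per degree of freedom). Counting did not separate near-identical copies in any way stated here.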

Additional observations from a re-analysis of the deposited data

How the results depend on the processing

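With edgeR in CPM, the number of the 6 reference miRNAs with an adjusted p under 0.05 went from 0 to 1 under median-of-ratios (RLE) factors in all 4 tests, in each case miR-423-5p. DESeq2 moved it from 0 to 1 among the 4 groups and for FAC against CON, in both cases miR-103-3p, and no filter on low counts moved it from 0 to 1 among the 4 groups and against VE. The fold rule gave 0 members against CON, DFO and VE among entries with at least 10 counts in every library, a filter that only 3 members pass, and 0 against DFO and VE with DESeq2. Over all entries the edgeR counts of 25, 1, 5 and 2 calls (4 groups, CON, DFO, VE) became 50, 21, 43 and 19 with DESeq2, 31, 16, 12 and 5 with RLE factors, and 5, 8, 27 and 0 with at least 10 counts in every library. With no composition factor, 2 entries were called against CON, and with no filter 4 against VE. By the fold rule, the 52, 67 and 51 entries against CON, DFO and VE became 30, 42 and 12 with at least 10 counts in every library.

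The labels do not say whether libraries with the same replicate number were paired. Deviations of same-numbered libraries had a mean correlation of 0.00483 over 18 pairs (-0.0895 to 0.0711), against -0.00232 over 36 pairs with other numbers. These values show no pairing but cannot exclude it. With the replicate block, miR-423-5p was called in CPM among the 4 groups (adjusted p = 0.00627), against CON (0.0190) and against VE (0.00153), so 1 member each, and miR-107-3p against CON turned to -1.39. It called 15, 2 and 3 entries in CPM among the 4 groups, against CON and against DFO, and 32 by the fold rule against VE. In TPM the replicate block left 1 member called among the 4 groups, as miR-103-3p had an adjusted p of 0.0603, and 0 entries against DFO in place of 21. For the ratios, permutation within replicate numbers also called 0 of 15 pairs. A pseudocount of 0.1 left 1 member by the fold rule against DFO in TPM and turned miR-425-5p to -0.34, and TPM without a filter called 8 entries against DFO.

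Without each library in turn, members called by adjusted p ranged from 0 to 1 in each CPM test, and in TPM from 1 to 4 among the 4 groups, 2 to 5 against CON and 0 to 1 against DFO. By the fold rule they ranged in CPM from 0 to 3 against CON, 0 to 2 against DFO and 1 to 2 against VE, and in TPM from 3 to 5, 0 to 2 and 0 to 4. Leaving out FAC replicate 3 gave the upper end of all these ranges, tied with DFO replicate 2 against DFO in TPM. Entries called by adjusted p ranged from 15 to 38, 0 to 17, 2 to 26 and 0 to 9 in CPM and from 36 to 149, 79 to 190, 0 to 97 and 0 to 46 in TPM (4 groups, CON, DFO, VE), each highest without FAC replicate 3. By the fold rule, entries against CON, DFO and VE ranged from 33 to 63, 41 to 69 and 25 to 61 in CPM and from 150 to 222, 85 to 152 and 50 to 141 in TPM. Leaving out CON replicate 1 also gave 1 member against CON in CPM, miR-423-5p (adjusted p = 0.0413). Directions that turned belonged to comparisons that had not passed. These were miR-107-3p against DFO (-2.42 to 0.45 in CPM, -0.77 to 0.89 in TPM), miR-425-5p against DFO (-1.11 to 0.058 and -0.54 to 1.86) and VE (-1.02 to 1.38 in TPM), miR-423-5p against DFO (-1.07 to 0.52 in TPM), and miR-423-3p against VE (-0.10 to 0.44 in TPM). The SD of miR-191-5p stayed between 0.31 and 0.38 in CPM and between 1.34 and 1.59 in TPM without each library, and between 0.33 and 0.43 in CPM under the other scalings. The causes were not tested.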
